A study of Mus musculus with 60 samples.

Results

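Cyclic AMP and CREB target genes of pancreatic islets were followed here under exendin-4 (exenatide), a peptide that activates the receptor of the incretin hormone GLP-1. The set holds 9 genes, namely Crem, Rgs2, Rasd1, Nr4a1, Nr4a2, Nr4a3, Irs2, Pde4b and Ppargc1a, out of 18193 genes named by a single-symbol probe set on the array. They were taken by gene symbol, and for each gene the probe set with the widest interquartile range over the arrays stands for it. The 9 genes have 31 of the array's 45101 probe sets, 22 of which varied enough to pass the filter on spread, and all 9 genes were among the 13176 tested.

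The islets came from male pIns-MYCERTAM mice on a CBA-C57BL/6 background, in which an insulin promoter drives a MYC fusion protein in beta cells that 4-hydroxytamoxifen (4OHT) switches on. The 4 treatments were 4OHT at 1 mg per day with exendin-4 (MycON exendin-4, 12 arrays), 4OHT with water (MycON water, 13 arrays), peanut oil with exendin-4 (MycOFF exendin-4, 15 arrays) and peanut oil with water (MycOFF water, 12 arrays). Exendin-4 was injected under the skin at 50 µg/kg, 2 doses a day, and exendin-4 or water began 2 days before the 4OHT or oil, so the 4, 8, 16, 32 and 72 h of the design are not times since the peptide was first given. Each of the 20 groups of treatment and time held 2 or 3 arrays after the submitters had set aside 8 of 60. All mice carried the transgene, so 4OHT and MYC cannot be told apart, and the labels give the age as 8 to 12 weeks in one place and as 3 months in another.

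Binding of GLP-1 or exendin-4 to its receptor activates the G protein Gs and adenylyl cyclase, and the cyclic AMP that is made activates protein kinase A and EPAC. Protein kinase A phosphorylates CREB, which binds the cyclic AMP response element (CRE) in promoters and recruits CRTC coactivators and the acetyltransferase CBP. In beta cells this pathway raises insulin secretion and supports survival. Several of its targets feed back on it, among them the repressor ICER made from Crem and the phosphodiesterases that break down cyclic AMP.

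Promoter windows of RefSeq (GRCm38.p6, from 250 bases before to 50 bases after the gene start) were matched by symbol for 7 of the 9 genes, 10 windows in all since Pde4b has 4. No window of these genes held the full CRE, TGACGTCA, which is in 1.79% of all 32851 windows. The half-site, TGACG or its reverse complement CGTCA, is in 20.8% of all windows, and every full site also counts as half-sites. It was found in 6 of the 7 genes, with 1 half-site in Ppargc1a and in 1 window of Pde4b, and 0 in Irs2. Rgs2 held 2 half-sites, where 5.01% of all windows hold 2 or more. The 3 NR4A genes held 4 each, where 0.231% of all windows hold 4 or more. The genes were taken as known CREB targets, and a match of letters is a description of the window only. The 250 bases before the start of the 4 genes with more than 1 half-site are printed 5′ to 3′ on the gene's strand, with the half-sites in capitals. They are chr1:144004150-144004399 (minus strand) for Rgs2, chr15:101266596-101266845 (plus strand) for Nr4a1, chr2:57124004-57124253 (minus strand) for Nr4a2 and chr4:48045055-48045304 (plus strand) for Nr4a3.
Rgs2: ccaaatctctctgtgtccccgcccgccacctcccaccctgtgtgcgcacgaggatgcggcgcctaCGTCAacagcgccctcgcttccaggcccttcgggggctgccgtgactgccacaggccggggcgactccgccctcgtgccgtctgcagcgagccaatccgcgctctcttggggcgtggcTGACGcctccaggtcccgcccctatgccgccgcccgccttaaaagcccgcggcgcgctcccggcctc
Nr4a1: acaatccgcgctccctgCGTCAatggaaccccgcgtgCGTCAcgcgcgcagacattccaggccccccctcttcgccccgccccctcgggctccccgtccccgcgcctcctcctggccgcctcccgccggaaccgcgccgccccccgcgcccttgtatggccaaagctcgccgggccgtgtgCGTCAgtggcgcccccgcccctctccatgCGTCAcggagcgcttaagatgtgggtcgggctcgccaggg
Nr4a2: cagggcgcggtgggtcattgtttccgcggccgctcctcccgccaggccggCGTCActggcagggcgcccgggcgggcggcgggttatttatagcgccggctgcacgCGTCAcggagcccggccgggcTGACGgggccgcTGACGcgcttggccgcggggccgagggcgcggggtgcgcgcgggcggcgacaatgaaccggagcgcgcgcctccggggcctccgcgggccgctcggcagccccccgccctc
Nr4a3: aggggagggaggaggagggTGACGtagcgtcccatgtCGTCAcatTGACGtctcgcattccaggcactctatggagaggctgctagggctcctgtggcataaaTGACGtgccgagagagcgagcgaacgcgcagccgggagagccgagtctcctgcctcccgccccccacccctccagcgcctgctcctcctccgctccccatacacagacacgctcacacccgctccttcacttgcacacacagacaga
In Rgs2 the half-sites begin 185 and 67 bases before the start. In Nr4a1 they begin 233, 213, 69 and 40 bases before it, in Nr4a2 200, 144, 123 and 111 bases before it, and in Nr4a3 231, 213, 205 and 147 bases before it.

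The values below are log2 deviations from the median of the same probe set over the 60 arrays, so 0 is that median, a difference of 1 is a doubling, and levels of different genes cannot be compared. Over all probe sets of an array these deviations had an SD between 0.284 and 0.949 in the 52 arrays used, and between 0.969 and 1.40 in the 8 set aside. Since levels were not kept, the presence of islet or other cell type markers could not be read from the table, only their changes. In whole captured islets, fewer cells of a type and less RNA per cell cannot be told apart. A gene passed a test at a Benjamini-Hochberg adjusted p under 0.05 over all 13176 genes in limma, and differences are given ± SE.

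Averaged over both MYC states and the 5 times, Crem and Rgs2 were higher and Rasd1 was lower in islets of mice given exendin-4 than in those given water, and the other 6 genes did not pass the test. Crem was 2.40-fold higher, with means of 0.57 in 27 exendin-4 arrays and -0.69 in 25 water arrays (difference 1.26 ± 0.22, adjusted p = 0.00118). Rgs2 was 2.17-fold higher, with means of 0.56 with exendin-4 and -0.56 with water (difference 1.12 ± 0.25, adjusted p = 0.0151). Rasd1 was lower, with means of 0.02 with exendin-4 and 0.37 with water (difference -0.35 ± 0.08, adjusted p = 0.0223). Over all genes tested 1.32% passed in this comparison, 38 of them higher and 136 lower, against 3 of the 9 genes here. The 9 genes had a median difference of 0.36 and 7 of them were above 0, against a median of -0.0031 and 49.4% above 0 over all genes tested. The 9 genes were chosen with earlier results of these data known, so these shares are a description and not independent evidence about the set. By p-value Crem ranked 22nd, Rgs2 63rd and Rasd1 98th of all genes tested. The 5 genes of smallest p give the scale: Hdac9, a class IIa histone deacetylase, differed by -2.31, Shroom3 by -0.78, Lrrc10b by 1.65, Six4 by -1.11 and Arhgef3 by 1.68. With all 60 arrays in the fit none of the 3 calls held: adjusted p was 0.0567 for Crem, 0.438 for Rgs2 and 0.657 for Rasd1. Array weights ended the call for Rgs2 (adjusted p = 0.0637), and that for Rasd1 ended without MycOFF water 16 h replicate 2 (0.0576) or MycOFF water 72 h replicate 1 (0.0508).

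**Figure D1:**
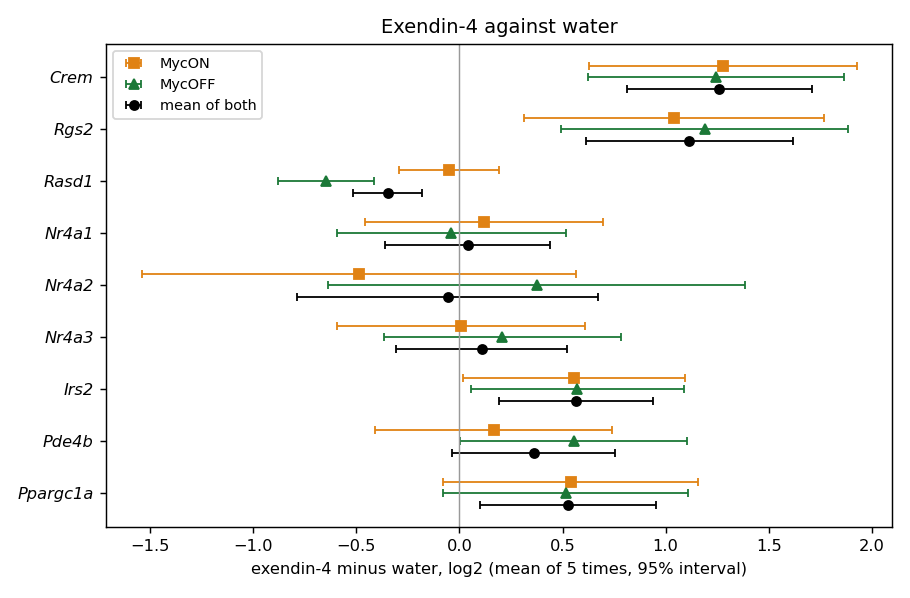
Difference between exendin-4 and water for the 9 genes, as log2 units on the x axis, averaged over 5 times in MycON islets (squares), in MycOFF islets (triangles) and over both (circles), with 95% intervals from limma. The intervals of Crem and Rgs2 lie above 0 in both MYC states, and that of Rasd1 lies below 0 in MycOFF islets and spans it in MycON islets.

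The modulator gene Crem encodes activators and repressors of CRE-dependent transcription, including ICER, a cyclic AMP-induced repressor. In MycON islets at 4 h it stood at 0.51 and 0.55 with exendin-4, against -1.25, 0.08 and -0.78 with water. At 8 h the MycON values were 0.71, 0.96 and 1.17 with exendin-4, against -1.40, -3.16 and 0.01 with water. The exendin-4 arrays were all above the water arrays at both times. At 16 h the MycON values were -0.36 and 0.53 with exendin-4, against 0.61 and 0.04 with water, and the groups overlapped. At 32 h they were 0.18 and 0.83 with exendin-4, against -2.12 and -1.01 with water. At 72 h they were 1.44, 0.65 and 0.72 with exendin-4, against -0.68, 0.06 and 0.69 with water. The groups were apart at 32 h and overlapped at 72 h, where 1 water array reached the exendin-4 range.

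In MycOFF islets at 4 h Crem stood at 0.54, 1.27 and 0.99 with exendin-4, against -0.01, -0.13 and -2.04 with water. At 8 h the MycOFF values were 0.94, 2.48 and 0.26 with exendin-4, against -0.84 and -1.82 with water. Again all exendin-4 arrays were above all water arrays at both times. At 16 h the MycOFF values were 1.12, -0.23 and -1.53 with exendin-4, against 0.02 and -0.60 with water, so the groups overlapped. At 32 h they were 0.75, 0.98 and 0.39 with exendin-4, against -1.47, -0.02 and -0.08 with water. At 72 h they were 0.19, -0.45 and 0.29 with exendin-4, against -1.21 and -0.17 with water. Crem was thus apart without overlap in 6 of the 10 pairs of groups, as in at least 6 pairs for 0.0607% of all genes tested. Its exendin-4 mean was the higher one in 9 of 10, a count whose share over all genes was not computed. Of single arrays, 23 of 27 with exendin-4 and 7 of 25 with water were above 0.

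The difference for Crem was 1.28 ± 0.32 in MycON islets (adjusted p = 0.127) and 1.24 ± 0.31 in MycOFF islets (adjusted p = 0.0779), and neither passed within 1 MYC state. The 2 differences differed by 0.03 ± 0.44, with a 95% interval of -0.86 to 0.93. By time, averaged over both states, the difference was 1.42 at 4 h, 2.51 at 8 h, -0.09 at 16 h, 1.65 at 32 h and 0.81 at 72 h. The value at 8 h passed the test on its own (± 0.48, adjusted p = 0.0181), in a comparison where 0.0683% of all genes passed. That call ended when any 1 of 6 of the 8 h arrays was left out, with adjusted p from 0.0558 to 0.233: MycON exendin-4 replicates 2 and 3, MycON water replicate 2, MycOFF exendin-4 replicate 2, and MycOFF water replicates 1 and 3. It was also lost with all 60 arrays (2.48, adjusted p = 0.468). A change of the exendin-4 effect of Crem over time was not called (moderated F test, unadjusted p = 0.0129, adjusted p = 1.00).

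Rgs2 encodes a regulator of G protein signalling that speeds GTP hydrolysis on G protein alpha subunits and so shortens receptor signals. In MycON islets at 4 h it stood at 1.87 and 0.68 with exendin-4, against -1.02, 0.77 and -1.08 with water. At 8 h the MycON values were 1.01, 1.33 and -0.03 with exendin-4, against -1.88, -0.37 and -0.52 with water. Only at 8 h of these 2 times were the groups apart, since 1 water array at 4 h lay above an exendin-4 array. At 16 h the MycON values were -0.95 and 1.94 with exendin-4, against 1.08 and -0.03 with water. At 32 h they were -0.35 and 0.57 with exendin-4, against -1.59 and -0.83 with water. At 72 h they were 1.95, 0.61 and 0.07 with exendin-4, against -0.30, 0.43 and 0.95 with water. The groups were apart at 32 h and overlapped at 16 and 72 h.

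In MycOFF islets at 4 h Rgs2 stood at 1.53, 1.20 and 1.93 with exendin-4, against 1.23, -0.90 and -0.69 with water. At 8 h the MycOFF values were 1.73, 0.70 and 0.52 with exendin-4, against -1.17 and 0.03 with water. At 4 h 1 water array reached the exendin-4 range, and at 8 h the groups were apart. At 16 h the MycOFF values were -0.26, 0.50 and 0.31 with exendin-4, against -1.04 and -1.28 with water. At 32 h they were 0.70, -1.03 and 0.97 with exendin-4, against -0.06, -0.95 and 0.25 with water. At 72 h they were -0.66, 0.57 and -2.48 with exendin-4, against -1.87 and -1.67 with water, and the array at -2.48 was the lowest of all 52. The groups of Rgs2 were apart in 4 of the 10 pairs, as in at least 4 pairs for 1.83% of all genes tested.

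Its difference was 1.04 ± 0.36 in MycON islets (adjusted p = 0.402) and 1.19 ± 0.34 in MycOFF islets (adjusted p = 0.194). The 2 differed by -0.15 ± 0.50 (95% interval -1.15 to 0.86). By time, averaged over both states, the difference of Rgs2 was 1.69 at 4 h, 1.62 at 8 h, 0.65 at 16 h, 0.89 at 32 h and 0.71 at 72 h, with no call at a single time. Its other probe sets differed by 0.89 ± 0.24, 0.72 ± 0.24 and 0.05 ± 0.03 between exendin-4 and water, and the last was below the filter on spread. The sets that stand for Rgs2 and Nr4a2 (suffix _s_at) and for Ppargc1a (suffix _x_at) are of kinds that can bind more than 1 transcript.

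Crem had 4 probe sets, and they did not move alike. The one that stands for the gene differed by 1.26, the others by 0.51 ± 0.19, 0.08 ± 0.08 and 0.06 ± 0.06. With the mean over its probe sets in place of the widest one, the difference of Crem was 0.48, and that of Rgs2 was 0.69, and both still passed. Pde4b had another 5 sets with differences from 0.04 to 0.15, Nr4a2 another 5 from -0.17 to 0.12 and Nr4a3 another 2 at 0.15 and 0.03, while Rasd1, Nr4a1 and Irs2 had 1 set each. Over all 31 probe sets of the 9 genes, 28 had a difference above 0, as had 19 of the 22 past the filter on spread. Sets of the same gene are not separate genes, and the share over all probe sets was not computed.

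**Figure D2:**
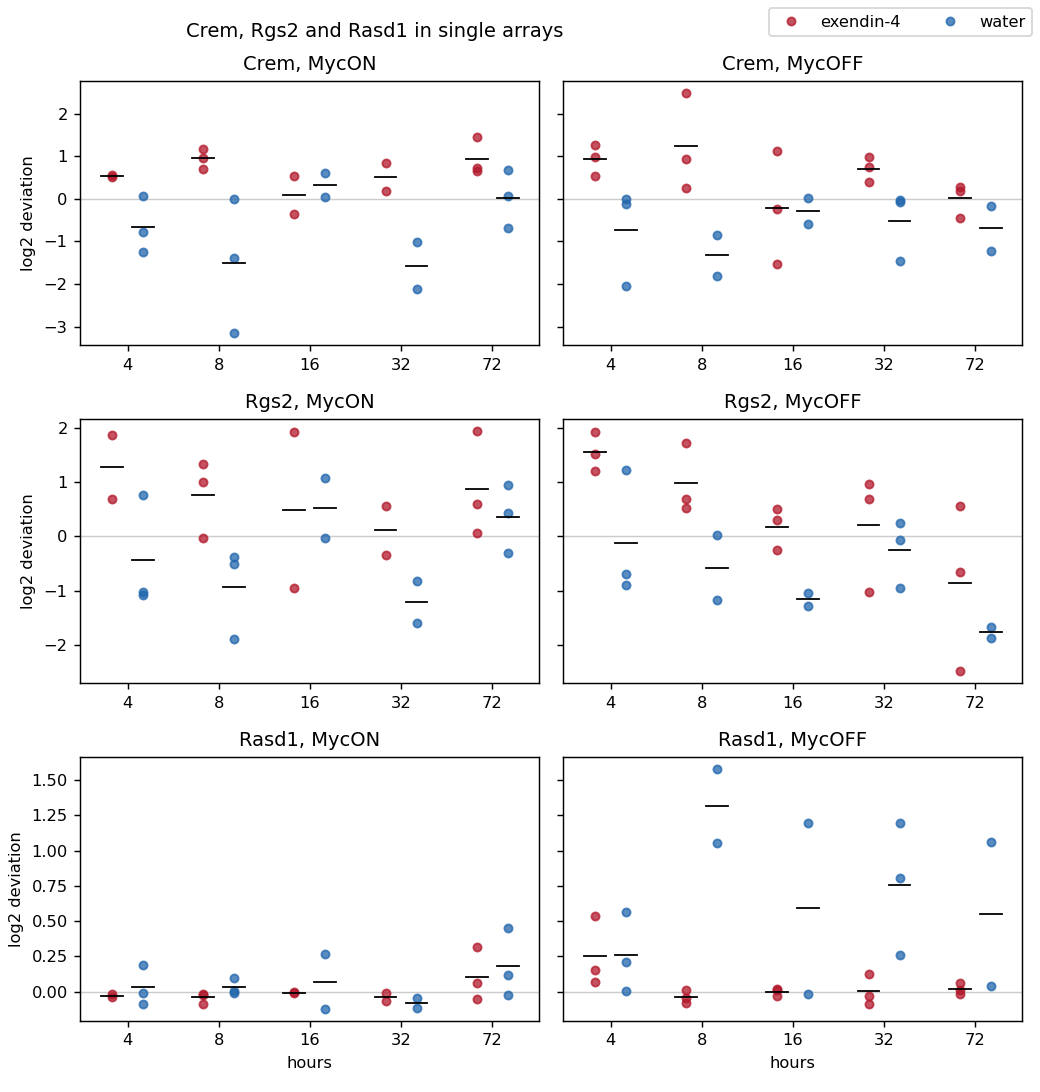
Crem, Rgs2 and Rasd1 in each array, as log2 deviation from the probe set's median on the y axis, by hours on the x axis, with exendin-4 left of water. Points are arrays and black bars are group means, and the Rasd1 arrays above 0.6 are all MycOFF water arrays.

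Rasd1, which encodes a small GTPase first found as a dexamethasone-induced gene, went the other way. In MycOFF islets at 8 h it stood at -0.08, -0.05 and 0.01 with exendin-4, against 1.05 and 1.58 with water. At 16 h the MycOFF values were 0.02, -0.03 and 0.01 with exendin-4, against 1.20 and -0.02 with water. At 8 h the groups were apart, and at 16 h they overlapped through 1 water array near 0. At 32 h they were 0.12, -0.09 and -0.03 with exendin-4, against 0.80, 1.20 and 0.26 with water. At 72 h they were 0.06, 0.01 and -0.02 with exendin-4, against 1.06 and 0.04 with water. The water arrays were thus all higher at 32 h and only in part at 72 h. At 4 h they were 0.54, 0.07 and 0.16 with exendin-4, against 0.01, 0.21 and 0.57 with water, and these groups overlapped. In MycON islets Rasd1 ran from -0.09 to 0.31 with exendin-4 (median -0.02) and from -0.12 to 0.45 with water (median -0.01). Rasd1 was above 0.5 in 7 of 12 MycOFF water arrays and in 1 of the 40 others. Of the arrays set aside, the MycOFF water arrays stood at -0.07 (8 h), -0.15 (16 h) and -0.04 (72 h). The MycON water arrays set aside stood at -0.07 and 0.07, and the MycON exendin-4 arrays at -0.05, -0.07 and 1.01.

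Of all 52 arrays, 37 (71.2%) had Rasd1 within 0.15 of 0, and 3 of the 12 MycOFF water arrays were among them. All exendin-4 arrays were below all water arrays in 3 of the 10 pairs, MycOFF at 8 and 32 h and, by a gap of about 0.01, MycON at 8 h, as in at least 3 pairs for 8.22% of all genes tested. The difference was -0.65 ± 0.11 in MycOFF islets (adjusted p = 0.00358) and -0.05 ± 0.12 in MycON islets (adjusted p = 0.971). The first is the 1 call among the 9 genes in MycOFF islets, where 0.228% of all genes passed, and no gene of the set was called in MycON islets, where 0.0683% passed. With the fit limited to the arrays compared, the MycOFF call was lost (adjusted p = 0.125), as with all 60 arrays (0.269). The 2 differences of Rasd1 differed by 0.60 ± 0.17, which did not pass over all genes (unadjusted p = 0.000917, adjusted p = 1.00). No gene at all passed that test of a difference between MYC states, so 0% of genes were called, with 250 genes at an unadjusted p under 0.05. The same held at single times, with 0% called over the 5 tests together.

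At single times in 1 MYC state, none of the 9 genes passed, against 0.0273% of all tests over the 10 comparisons. The smallest p was that of Rasd1 in MycOFF islets at 8 h (difference -1.35 ± 0.27, unadjusted p = 1.3e-05, adjusted p = 0.128). For Crem at 8 h the differences were 2.46 ± 0.64 in MycON and 2.56 ± 0.71 in MycOFF islets.

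**Figure D3:**
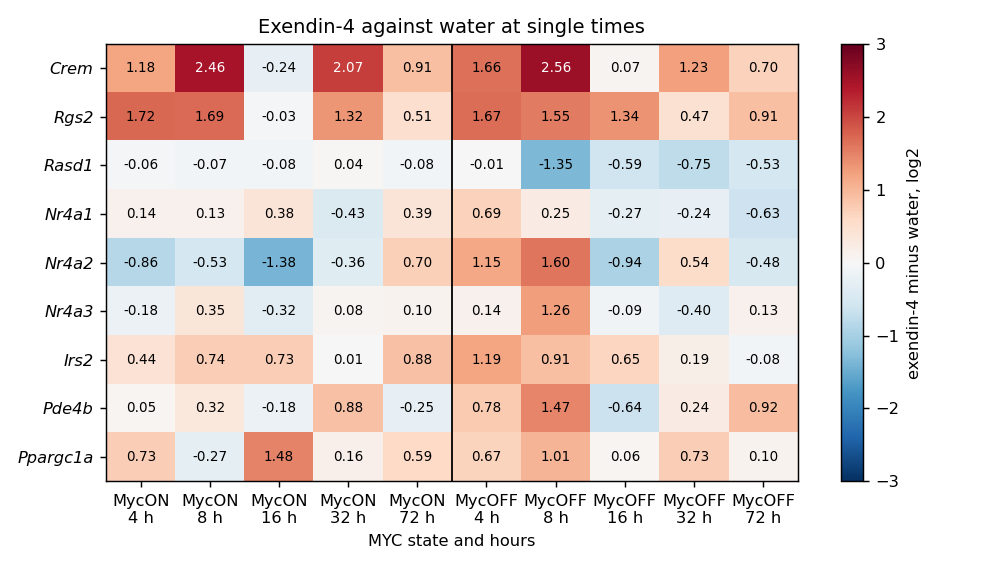
Difference between exendin-4 and water for the 9 genes in log2 units, by MYC state and hours (columns) and gene (rows), with red for higher and blue for lower with exendin-4. Crem is at 2.46 and 2.56 at 8 h and near 0 at 16 h, and none of the differences shown passed the test over all genes.

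Irs2, an adaptor of the insulin and IGF-1 receptors and a known CREB target in beta cells, differed by 0.56 ± 0.18 (95% interval 0.19 to 0.94, adjusted p = 0.134). It ran from -0.12 to 1.69 in MycON exendin-4 arrays (median 0.03), against -1.13 to 0.005 in MycON water arrays (median -0.13). In MycOFF islets it ran from -0.83 to 2.14 with exendin-4 (median 0.97), against -0.37 to 1.34 with water (median 0.03). Irs2 was above 0.5 in 4 of 12 MycON and 8 of 15 MycOFF exendin-4 arrays, against 0 of 13 MycON and 1 of 12 MycOFF water arrays. Its exendin-4 mean was the higher one in 9 of 10 pairs, with single-time differences from -0.08 to 1.19. The share of all genes tested with as many higher means was not computed. Over the alternatives its adjusted p ran from 0.0636 to 0.221.

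Ppargc1a encodes PGC-1 alpha, a coactivator of genes of mitochondria and fasting metabolism. It differed by 0.53 ± 0.21 (95% interval 0.10 to 0.96, adjusted p = 0.258). Its exendin-4 mean was the higher one in 9 of 10 pairs, again without a share over all genes computed. At 72 h its MycON values were 1.12, 1.32 and 1.81 with exendin-4, against 0.25, 2.48 and -0.25 with water. At 32 h its MycOFF values were 1.19, 1.96 and 1.21 with exendin-4, against 1.94, 0.52 and -0.28 with water. In both cases 1 water array was as high as the exendin-4 arrays or higher. At 16 h the MycON values were 0.53 and 2.56 with exendin-4, against 0.12 and about 0 with water. Another 4 probe sets of the gene differed by 0.78 ± 0.26, 0.20 ± 0.24, 0.30 ± 0.11 and 0.05 ± 0.03, all above 0.

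Pde4b encodes a phosphodiesterase that breaks down cyclic AMP. It differed by 0.36 ± 0.20 (95% interval -0.04 to 0.76, adjusted p = 0.469), by 0.17 ± 0.28 in MycON and 0.55 ± 0.27 in MycOFF islets. At 8 h its MycOFF values were 1.68, 0.60 and 0.47 with exendin-4, against -1.12 and 0.01 with water. At 72 h its MycOFF values were 1.30, 0.29 and 0.81 with exendin-4, against -0.10 and -0.13 with water. The groups were apart at these times. Over both MYC states and all times they were apart in 4 of the 10 pairs, as in at least 4 pairs for 1.83% of all genes tested. At 16 h 1 MycOFF exendin-4 array (replicate 3) was the lowest of all at -2.80, beside 0.16 and 0.82.

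**Figure D4:**
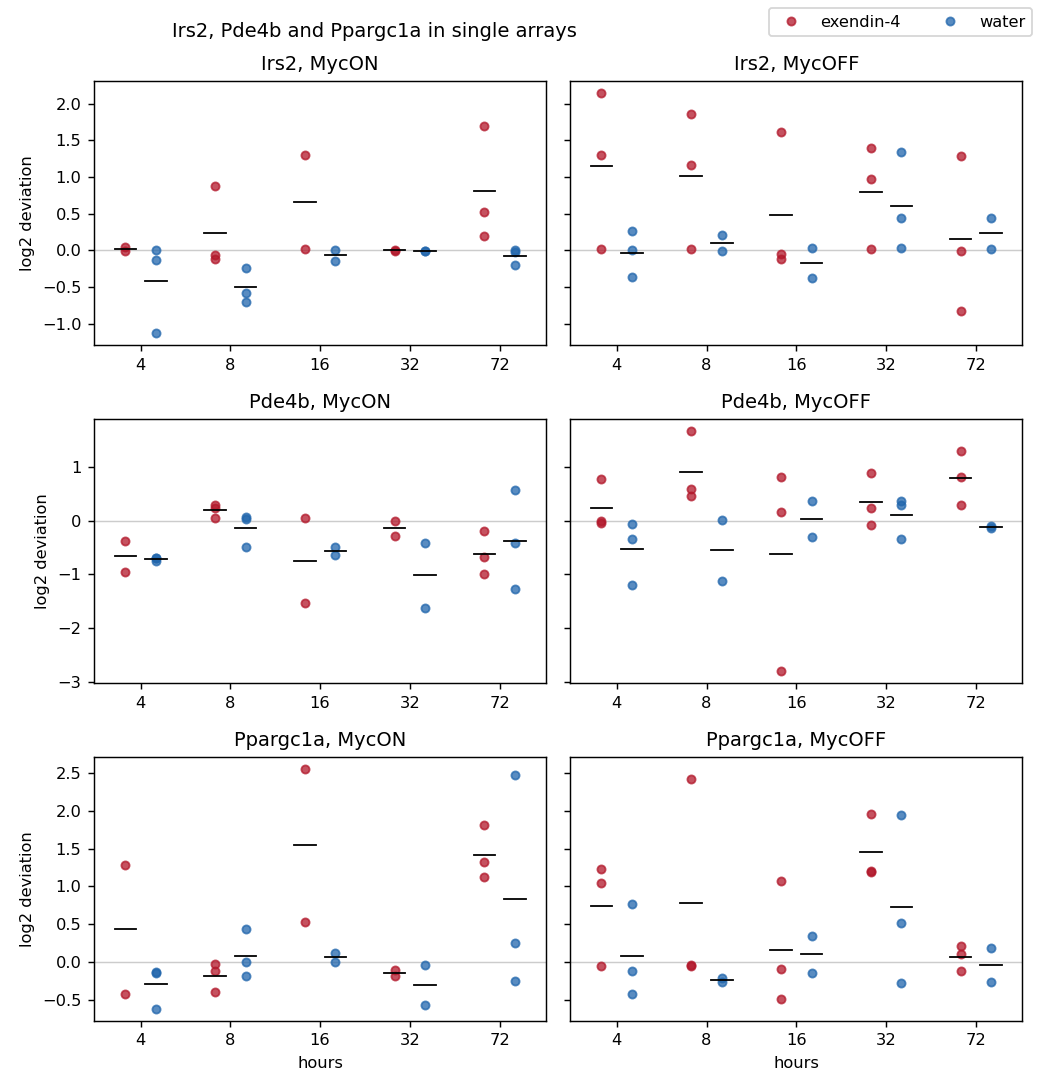
Irs2, Pde4b and Ppargc1a in each array, as log2 deviation on the y axis by hours on the x axis, with exendin-4 left of water, points for arrays and black bars for group means. Irs2 reaches 2.14 in MycOFF exendin-4 arrays while the MycON water arrays stay at or below 0.005.

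The 3 NR4A genes encode orphan nuclear receptors that are induced fast and briefly by cyclic AMP in many cells. Nr4a1 differed by 0.04 ± 0.20 (95% interval -0.36 to 0.44), Nr4a2 by -0.06 ± 0.36 (-0.79 to 0.67) and Nr4a3 by 0.11 ± 0.21 (-0.31 to 0.52), with adjusted p of 0.946, 0.961 and 0.840. Their exendin-4 means were the higher ones in 6, 4 and 6 of 10 pairs. Nr4a1 lay within 0.15 of 0 in 24 of 52 arrays and Nr4a3 in 18, while Nr4a2 did so in 3 and ran from -1.46 to 3.32 in MycOFF exendin-4 arrays and from -2.79 to 1.71 in MycOFF water arrays.

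Single arrays stood out in this family. The MycOFF exendin-4 array of replicate 2 at 8 h was the highest of all 52 for Nr4a1 (2.31), Nr4a2 (3.32), Nr4a3 (3.45) and Crem (2.48), while its 2 companions had -1.06 and -0.51 for Nr4a1 and -0.22 and 0.01 for Nr4a3. The MycOFF exendin-4 array of replicate 2 at 4 h had 1.99 for Nr4a1, 2.67 for Nr4a2, 0.60 for Nr4a3 and 2.14 for Irs2. One other array matched them for Nr4a2, a MycON water array at 8 h with 3.11. With any 1 array left out the difference of Nr4a1 ran from -0.06 to 0.11, that of Nr4a2 from -0.18 to 0.07 and that of Nr4a3 from -0.01 to 0.18.

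**Figure D5:**
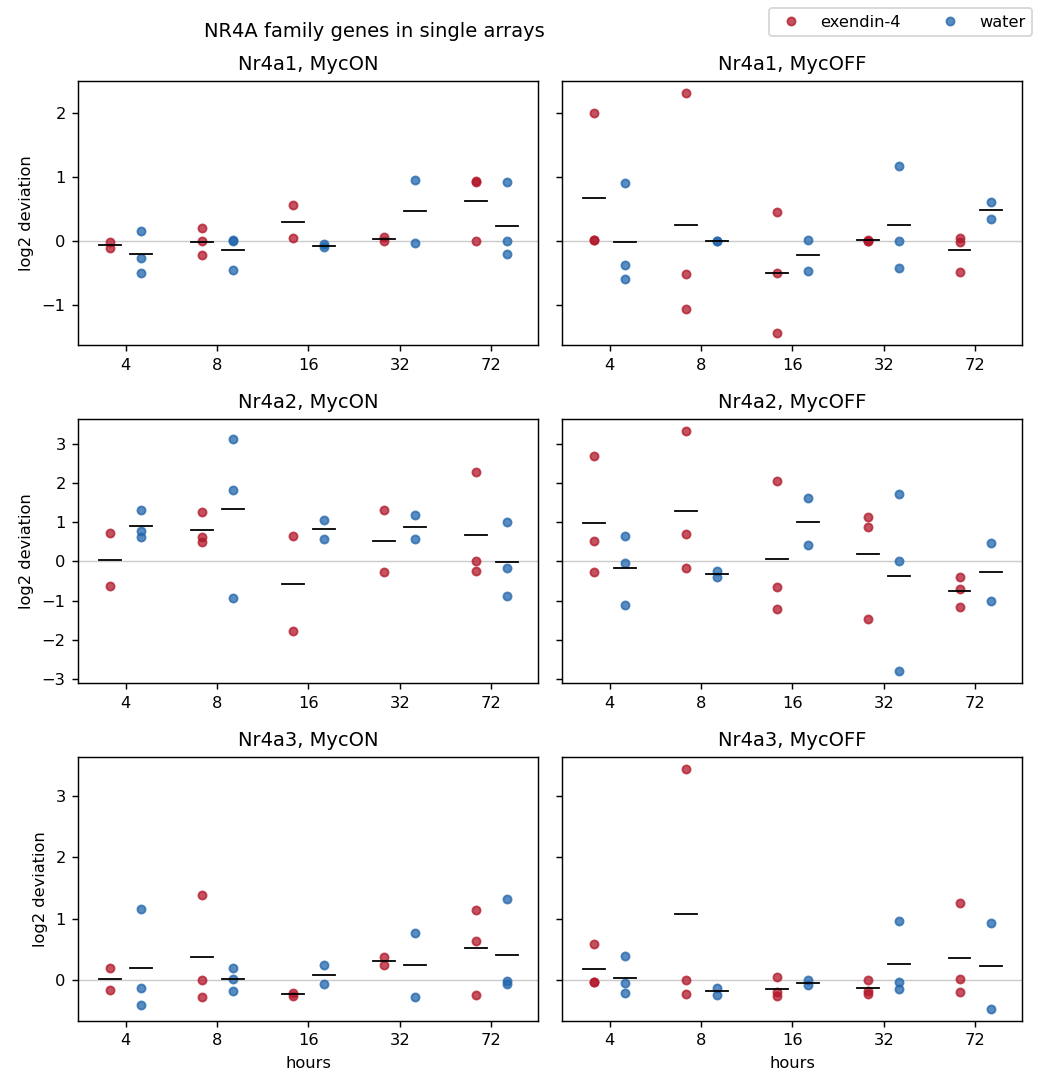
Nr4a1, Nr4a2 and Nr4a3 in each array, as log2 deviation on the y axis by hours on the x axis, with exendin-4 left of water, points for arrays and black bars for group means. One MycOFF exendin-4 array at 8 h is highest in all 3 genes, at 2.31, 3.32 and 3.45.

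The genes moved together only in part. Around the group means over the 52 arrays, Pearson's r was 0.61 between Nr4a1 and Nr4a3, 0.55 between Nr4a1 and Irs2, 0.47 between Crem and Nr4a3 and 0.11 between Crem and Rgs2. Some pairs went against each other, with the lowest r of the 36 pairs at -0.42 between Nr4a1 and Ppargc1a and -0.41 between Nr4a2 and Pde4b. Without removing group means r between Crem and Rgs2 was 0.53. These are descriptions over arrays that share labelling and normalization. They include the MycOFF exendin-4 array of replicate 2 at 8 h, the highest of all 52 for Nr4a1, Nr4a3 and Crem. How far r rests on that array was not tested. Likeness to other genes was taken without removing group means, so differences between groups that 2 genes share enter the r values that follow. Of all genes tested, those most like Crem over the 52 arrays were Mdm1 (r = 0.74) and Errfi1 (0.66), which encodes a feedback inhibitor of the EGF receptor. Those most like Rgs2 were Mdm1 (0.57) and Fkbp5 (0.56), and those most like Rasd1 were Tmem63a (0.61) and Ago4 (0.58). For Irs2 they were Il6ra, the interleukin-6 receptor (0.65), and Tmem130 (0.65), for Pde4b Pdcd4 (0.58) and Stk32a (0.57), and for Ppargc1a Castor2 (0.58) and Atp6v1g1 (0.58). For Nr4a1 they were Dpp3 (0.62) and Creld2 (0.62), for Nr4a2 Fads6 (0.55) and Npm1 (0.50), and for Nr4a3 Epm2a (0.62) and Fam167a (0.59).

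MYC activation was set against no activation for the same genes. With water, MycON islets had lower Rasd1 than MycOFF islets, with means of 0.05 in 13 MycON arrays and 0.69 in 12 MycOFF arrays (difference -0.65 ± 0.12, adjusted p = 7.1e-04). This comparison uses the same MycOFF water arrays as that of exendin-4 in MycOFF islets. It was the 1 call among the 9 genes, where 5.59% of all genes passed, and it was lost with all 60 arrays (adjusted p = 0.0714). At 8 h alone Rasd1 differed by -1.29 ± 0.27 (adjusted p = 0.0253), where 0.25% of all genes passed. The call at 8 h was lost with all 60 arrays (-0.82, adjusted p = 0.457), with the fit limited to the arrays compared (0.129), and without any 1 of 4 of the 5 water arrays at 8 h, MycON replicates 1 and 3 and MycOFF replicates 1 and 3 (0.0668 to 0.475). With exendin-4, MycON against MycOFF gave no call among the 9 genes, where 5.79% of all genes passed. The largest difference was that of Pde4b, with means of -0.39 in 12 MycON arrays and 0.34 in 15 MycOFF arrays (difference -0.74 ± 0.27, adjusted p = 0.108). Without MycOFF exendin-4 16 h replicate 3, Pde4b differed by -0.95 and passed (adjusted p = 0.00474). For Crem the MYC difference was 0.07 ± 0.31 with exendin-4 and 0.03 ± 0.32 with water.

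Some markers of cell types, beta cells among them, were also called with MYC. Of all genes, 5.59% passed in that comparison with water and 5.79% with exendin-4. With water, the macrophage marker Cd68 was higher in MycON islets by 1.73 (adjusted p = 0.00574), the 1 call among 8 immune markers. Lower there were the beta cell genes Pdx1, a transcription factor (-0.90, adjusted p = 0.00326), and Ucn3, a peptide of mature beta cells (-1.59, adjusted p = 0.0423), 2 of 8 beta cell markers. Of 5 endothelial markers 1 was lower, the VEGF receptor gene Kdr (-1.05, adjusted p = 0.0234). With exendin-4, 3 of 8 immune markers were higher in MycON islets, Cd68 by 2.40 (adjusted p = 1.0e-04), C1qc, which encodes a complement chain, by 1.69 (7.5e-04) and the lysozyme gene Lyz2 by 1.88 (0.00649), and no beta cell or endothelial marker was called. The mean of the immune markers per array ran from -0.86 to 3.12 in MycON exendin-4 arrays (median 0.68), against -1.68 to 0.66 in MycOFF exendin-4 arrays (median -0.23). With water it ran from -0.97 to 1.90 in MycON arrays (median -0.045), against -0.82 to 0.55 in MycOFF arrays (median -0.24). The mean of the beta cell markers with water ran from -1.17 to 1.10 in MycON arrays (median -0.11), against -0.93 to 1.36 in MycOFF arrays (median 0.40). With exendin-4 it ran from -1.19 to 0.42 in MycON arrays (median -0.03), against -1.02 to 1.39 in MycOFF arrays (median 0.57). All 9 acinar markers were above 0 with both injections, with median differences of 0.40 with exendin-4 and 0.47 with water. Of 6 stromal markers, 5 were above 0 with exendin-4 (median 0.38) and 4 with water (median 0.26). Of 5 alpha, delta and PP cell markers, 5 were above 0 with exendin-4 (median 0.57) and 0 with water (median -0.18). No acinar, stromal or alpha, delta and PP cell marker was called. The part of these cell types in the MYC differences of Rasd1 and Pde4b was not tested.

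Changes over the 5 times within a treatment were not called for any of the 9 genes by the moderated F test. The smallest unadjusted p were those of Rasd1 in MycOFF water islets (0.00774), Rgs2 in MycOFF exendin-4 islets (0.0232), Ppargc1a in MycON exendin-4 islets (0.0293) and Crem in MycON water islets (0.0344), all with an adjusted p above 0.3.

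Other genes of the pathway were looked at in 5 lists, with 45 of 58 genes tested, and 1 of the 45 was called for exendin-4 against water averaged over both MYC states, where 1.32% of all genes passed. It was Sik2, a kinase that holds CRTC coactivators out of the nucleus, with a difference of 0.91 ± 0.21 (adjusted p = 0.0192), and it passed under all 60 alternatives run (adjusted p from 0.00294 to 0.0426). Sik2 had medians of 0.36 in MycON exendin-4 and -0.04 in MycON water arrays, and of 0.92 in MycOFF exendin-4 and -0.61 in MycOFF water arrays. The ranges overlapped, from -0.93 to 1.86 with exendin-4 against -1.08 to 0.53 with water in MycOFF islets. Of the other CREB factors and coactivators, 0 of 6 passed, and Creb1 itself differed by -0.48 ± 0.20 (adjusted p = 0.299). Among receptors, Gs and adenylyl cyclases 0 of 8 tested genes passed, with differences from -0.37 for Adcy9 to 0.24, and Adcy8 at 0.09. The GLP-1 receptor gene Glp1r varied too little to be tested.

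Of the protein kinase A and EPAC genes 0 of 10 passed for exendin-4. The catalytic subunit gene Prkacb differed by -0.44 ± 0.21 (adjusted p = 0.379) and the kinase inhibitor gene Pkia by -0.34 ± 0.12 (adjusted p = 0.186). Prkar2a, a regulatory subunit, was the 1 of these 10 genes called with MYC, higher in MycON than in MycOFF islets by 0.75 ± 0.16 with exendin-4, where 5.79% of all genes passed, and by 0.98 ± 0.16 with water, where 5.59% passed. Of the other phosphodiesterases 0 of 8 passed, and Pde8b differed by 0.35 ± 0.10 (adjusted p = 0.0736) and Pde10a by 0.54 ± 0.27 (adjusted p = 0.404). Of other cyclic AMP response genes 0 of 12 passed. Per1, a clock gene with CRE-driven induction, differed by 0.47 ± 0.13 (adjusted p = 0.0536, past the threshold under 13 of 60 alternatives), Klf4 by 0.62 ± 0.28, Egr1 by 0.37 ± 0.28 and Fos by -0.36 ± 0.34.

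Markers of cell types were set beside these values, for exendin-4 against water averaged over both MYC states, where 1.32% of all genes passed. Of the beta cell markers 1 of 8 tested genes passed for exendin-4, the glucose transporter gene Slc2a2 (-0.67 ± 0.16, adjusted p = 0.0301), and 3 of 8 were above 0. The call for Slc2a2 was lost under 10 of 60 alternatives, with all 60 arrays (adjusted p = 0.988), with array weights (0.278), and without any 1 of 8 arrays (0.0518 to 0.0661). No gene passed among 5 alpha, delta and PP cell, 9 acinar, 8 immune, 5 endothelial and 6 stromal markers. All 6 stromal markers were above 0 with a median difference of 0.46, and their mean per array ran from -0.92 to 3.11 with exendin-4 (median -0.12) and from -1.54 to 2.05 with water (median -0.37). Immune markers had 7 of 8 above 0 with a median difference of 0.19. By MYC state, 8 of 8 were above 0 in MycON islets (median 0.50) and 1 of 8 in MycOFF islets (median -0.15), with no call in either. Acinar markers had 1 of 9 above 0 with a median of -0.22. The mean of the acinar markers per array ran from -1.31 to 3.17 with exendin-4 and from -1.15 to 3.42 with water. The part of these cell types in the differences of Crem, Rgs2 and Rasd1 was not tested.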

How the data were processed

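Islets cut by laser from 15 µm frozen pancreas sections gave 6 µg of RNA per array, per the labels' protocols. The deposited log2 values are centred on each probe set's median over 60 arrays. MAS5 and GCRMA are named, without a role, per the submitters' processing notes. The log base is not given in the sources used here and was taken as 2 from the range of the values (-12.3 to 12.8), since natural logs of 16-bit intensities reach 11.1. Levels and background limits were not kept, and the number of arrays limits the precision.

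The 52 arrays that the submitters kept entered 1 limma 3.58.1 fit (R 4.3.3, data.table version 1.17.8) of 20 group means (eBayes; degrees of freedom: 32 residual, 2.75 prior). Probe sets under the 40th percentile of the interquartile range (0.101) were left out. Averaged differences weight the 10 or 5 pairs of groups equally. The labels call the arrays of a group biological replicates but tie none to a named animal, so p-values measure the spread between these arrays. Exendin-4 and water arrays with the same number had a median residual correlation of -0.005 over 22 pairs, so the numbers were not taken as pairs. The test was run on simulated data with known effects, drawn as independent normal values with the same spread of a gene in every array. The arrays used differ in spread, which that check does not cover.

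The 9 genes, 5 pathway lists and 6 marker lists were chosen with earlier results of these data known. Named besides the 9 genes are pathway genes past the threshold or else the 2 of smallest p per list, the 2 genes most correlated with each of the 9, and the 5 smallest p. Creb1, Egr1, Fos and Slc2a2 were chosen after their values were seen. Only the 34945 probe sets with 1 symbol in the array annotation were used; 932 had several and 9160 had none. Alternatives were all 60 arrays, other scalings, filters, probe set rules, array weights, a replicate block, and each array left out. Figures were drawn with matplotlib 3.10.9.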

Additional observations from a re-analysis of the deposited data

Results flagged for a closer look

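The 8 arrays that the submitters set aside hold values of 6 of these genes outside the range of the arrays used. Nr4a3 stood at 4.25 in the MycON exendin-4 array of replicate 3 at 4 h, against a highest value of 3.45 in the 52 arrays used. Pde4b stood at 1.93 in the MycOFF water array of replicate 1 at 16 h, against 1.68. Ppargc1a stood at 3.11 in the MycON exendin-4 array of replicate 3 at 32 h and at 3.35 in the MycON water array of replicate 3 at 16 h, against 2.56. Below that range, the MycON water array of replicate 1 at 32 h had -3.38 for Pde4b, against a lowest value of -2.80, and -1.40 for Irs2, against -1.13. Crem stood at -3.21 in the MycON exendin-4 array of replicate 3 at 32 h, against -3.16, and Rasd1 at -0.15 in the MycOFF water array of replicate 1 at 16 h, against -0.12. These arrays had the widest spread of all probe sets and were set aside for poor reproducibility.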

How the results depend on the processing

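No difference past the threshold among the 9 genes changed sign under any alternative run. With all 60 arrays, exendin-4 against water averaged over both MYC states had 0 of the 9 genes and 16 of all genes past the threshold; within MycON islets 3 genes in all passed, within MycOFF islets 6 with 0 of the 9, and MycON against MycOFF with water had 177 with 0 of the 9. Quantile normalization gave 18 genes in MycON islets and 49 in MycOFF islets with 2 of the 9 (Crem and Rasd1). It gave 1165 genes for MYC with water, and 1 of the 9 for MYC with exendin-4 (Pde4b). For MYC with exendin-4, 519 to 1070 of all genes passed over the alternatives that did not leave 1 array out. Array weights gave 48 genes in MycON islets with 1 of the 9 (Crem, 1.41, adjusted p = 0.0247), 1 for MYC with exendin-4 (Pde4b), 1 at 8 h in MycON (Crem, with 408 genes in all, 3.10%), 1 at 8 h (Rasd1, with 9 genes, 0.0683%) and 1 at 32 h (Rasd1, with 67 genes, 0.509%) in MycOFF islets, Rasd1 beside Crem at 8 h over both states (-0.72, adjusted p = 0.0171, with 61 genes, 0.463%), and 1 each for a change over time in MycON water (Crem, with 2239 genes, 16.99%) and in MycOFF water islets (Rasd1, with 49 genes, 0.372%). The mean over probe sets gave 49 genes in MycOFF islets with 2 of the 9. No filter on spread gave 17 genes in MycOFF islets and 1 of the 9 there at 8 h (Rasd1, with 3 genes in all), as did quantile normalization (Rasd1, with 5 genes). Only the arrays compared gave 11 genes in MycOFF islets and 0 of the 9; for the mean of both states and the interaction this is the same fit and was not run apart. Of the 5 genes of smallest p, Shroom3 and Six4 did not pass with all 60 arrays (adjusted p = 0.755 and 0.526). Pde8b passed under 4 of 60 alternatives. The cause of these moves was not tested.

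With a replicate block, 15 genes passed in MycON islets; it changed no other count of calls by over 1.5 times among the averaged comparisons, and no call among the 9 genes. Leaving out 1 array at a time gave 97 to 246 genes for exendin-4 averaged over both states with 2 to 3 of the 9, 3 to 27 in MycON islets, and 11 to 45 in MycOFF islets with 1 to 2 of the 9. It gave 0 to 2 genes for the interaction, 505 to 894 for MYC with exendin-4 with 0 to 1 of the 9, and 0 to 1 of the 9 at 8 h in MycOFF islets. The alternatives for MYC with water at 8 h were added after the data were seen, and gave 0 of the 9 with all 60 arrays and with only the arrays compared, and 0 to 1 with 1 array left out. The fewest for both states came without MycOFF water 16 h replicate 2, the lowest 505 without MycON exendin-4 4 h replicate 2. Groups hold 2 or 3 arrays, and a lone array was assumed to vary like the other groups.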

Other observations

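The set-aside arrays were low for Crem whatever was injected. Crem stood at -1.09, -3.09 and -3.21 in the 3 set-aside MycON exendin-4 arrays, against -3.10 and -2.63 in the 2 MycON water arrays, and at -1.12, -2.60 and -1.99 in the 3 MycOFF water arrays. Nr4a2 ran from -2.60 to -1.95 in all 8. No MycOFF exendin-4 array was set aside.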
